A study of Homo sapiens with 12 samples.

Results

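The expression of 9 genes of glutathione synthesis, reduction and breakdown was followed in KELLY and SK-N-AS, established lines of human neuroblastoma, which had been kept for 24 h in Erastin or in its solvent DMSO. The genes CHAC1, CHAC2, GGCT, OPLAH, GGT7, GCLC, GCLM, GSS and GSR were chosen by name for their place in the pathway. Earlier results of these data were known at that time. Each gene had 1 row among the 58735 gene names of the count tables. KELLY carries an amplified MYCN locus and was treated with 1 µM Erastin. SK-N-AS has no MYCN amplification and was treated with 2 µM Erastin, so cell line and dose cannot be told apart in any difference between the responses. Each of the 4 groups (KELLY DMSO, KELLY Erastin, SK-N-AS DMSO, SK-N-AS Erastin) held 3 samples, and each background was represented by 1 cell line. The samples are described as biological triplicates of the same line, and p-values therefore measure the spread between cultures of that line.

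Glutathione is built in 2 steps. Glutamate-cysteine ligase, made of the catalytic subunit GCLC and the modifier subunit GCLM, joins glutamate to cysteine, and glutathione synthetase (GSS) then adds glycine. Glutathione reductase (GSR) returns oxidised glutathione to its reduced form with NADPH. Inside the cell CHAC1 and CHAC2 split glutathione into 5-oxoproline and cysteinylglycine, GGCT releases 5-oxoproline from other γ-glutamyl compounds, OPLAH opens 5-oxoproline to glutamate, and GGT7 belongs to the γ-glutamyltransferase family. Erastin blocks system Xc, the antiporter that brings in cystine, the source of the cysteine in glutathione. CHAC1 is a known target of the stress factor ATF4, and GCLM and GCLC are known targets of the oxidative stress factor NFE2L2 (NRF2).

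Total counts per sample lay between 24169796 and 29835670. MYCN had 116651 to 159802 counts in the KELLY samples and 1 to 11 in the SK-N-AS samples, as the line labels require. KELLY DMSO sample 1 stood apart with 21414 genes that had a count, against 23553 to 24418 in the other 11 samples. All 10 markers of sympathetic neuroblasts examined were present in KELLY, with a summed level of 4733 to 7499 CPM (counts scaled to library size) under DMSO and 6242 to 11387 CPM under Erastin. In SK-N-AS the sum was 964 to 1078 CPM and TH and DBH, the enzymes that define catecholamine synthesis, stayed at 1.59 to 3.30 and 3.57 to 5.91 CPM. The 8 mesenchymal markers summed to 4760 to 5357 CPM there, against 153 to 175 CPM in KELLY with DMSO and 121 to 149 CPM in KELLY with Erastin, without overlap. All 7 of these markers that could be tested in KELLY had a negative log2 fold change, with a median of -0.39 (-0.23 once the GC trend described below was removed). None passed an adjusted p of 0.05 or the threshold of the study's methods, given with CHAC1. Once the GC trend was removed 1 met the latter, against 1.97% of all genes. On the counts as deposited 2 had an unadjusted p under 0.05 by edgeR, against 2.64% of all genes. LUM, PRRX1 and YAP1 were low in KELLY, at no more than 0.566, 1.73 and 2.63 CPM. The part of these markers, or of the neuroblast markers, in the KELLY responses was not tested. Of 10 blood cell markers only PTPRC was abundant, at 447 to 609 CPM in SK-N-AS and 0 counts in KELLY, and CD3E and LYZ were at 0 in all 12 samples. In KELLY these markers summed to 15.6 CPM in DMSO sample 1 and 5.67 CPM in Erastin sample 1, against 0.286 to 0.552 CPM in the other samples. Base composition set the libraries apart as well. Each library was compared with the average library of its line on the log2 scale, and this difference was ranked against the GC content of 12023 genes in KELLY, which gave a Spearman correlation of -0.83, 0.70 and -0.47 for DMSO samples 1 to 3 and of 0.86, -0.66 and 0.25 for Erastin samples 1 to 3. The 3 DMSO samples of SK-N-AS gave 0.77, 0.24 and -0.75 over 11882 genes, and its Erastin samples -0.28, 0.43 and -0.44. The KELLY responses of the genes described are therefore also given after removal of this trend from every library, a correction that would also remove any true response that followed GC content.

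Among the enzymes of glutathione breakdown, CHAC1 had the largest response to Erastin of the 9 genes in both lines. In KELLY, CHAC1 (chr15:40952962-40956512, plus strand, GRCh38) had 92, 114 and 121 counts in the DMSO samples, which compare with 1087, 559 and 804 in the Erastin samples. This corresponded to 3.58, 4.63 and 4.23 CPM against 44.6, 21.7 and 29.1 CPM, and the lowest Erastin sample lay above the highest DMSO sample. The SK-N-AS counts were 32, 20 and 23 under DMSO and 476, 848 and 527 under Erastin, or 1.18, 0.795 and 0.864 CPM against 17.5, 28.8 and 20.5 CPM. The groups did not overlap in this line either, and CHAC1 started from a lower control level than in KELLY. In such bulk samples more cells that express a gene and more RNA per cell cannot be told apart.

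By edgeR's quasi-likelihood test CHAC1 rose 23.6-fold in SK-N-AS, a log2 fold change of 4.56 ± 0.23 (SE) with an adjusted p of 1.54e-06. In KELLY the fold was 7.68, a log2 fold change of 2.94 ± 0.30 (SE). Its unadjusted p by edgeR of 1.23e-05 met the threshold used in the study's methods (a p not above 0.05 before adjustment, with at least a 1.5-fold difference). The study used these limits with DESeq2 on protein-coding genes alone. Here and below they were used with edgeR on all genes tested, so the calls are not the study's own. The adjusted p by edgeR was 0.0903, short of 0.05. After the GC trend was removed, the KELLY levels were 5.29, 4.06 and 4.56 CPM with DMSO and 29.4, 24.4 and 28.0 CPM with Erastin, and the log2 fold change was 2.57 ± 0.14 (SE) with an adjusted p by edgeR of 1.90e-04. DESeq2 on the counts as deposited gave an adjusted p of 4.54e-17 in KELLY. Over 17 alternative analyses the KELLY log2 fold change of CHAC1 stayed between 2.56 and 3.15, with adjusted p between 4.54e-17 and 0.961, and 7 of the 17 passed 0.05. Leaving out KELLY Erastin sample 1 or 2 gave adjusted p-values by edgeR of 0.0400 and 0.0343, and each of the other 4 omissions left it above 0.05, KELLY DMSO sample 1 among them (log2 fold change 2.85 ± 0.35, SE, adjusted p 0.391).

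**Figure D1:**
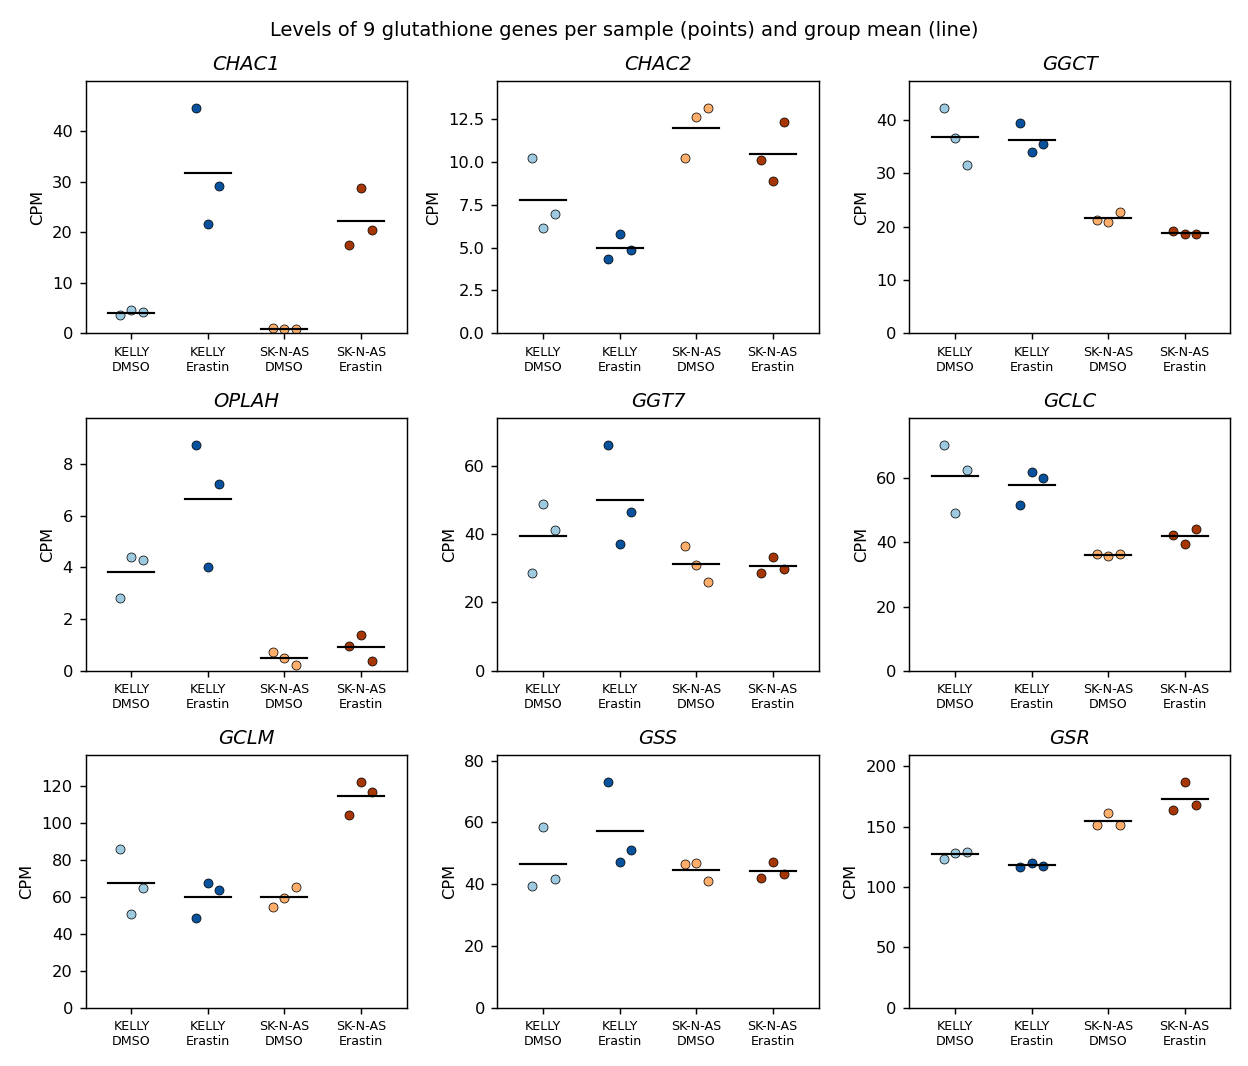
Levels of the 9 genes in each sample (points, in CPM scaled by TMM over the 12 samples) with the group mean (line, n = 3), for KELLY (blue) and SK-N-AS (orange) with DMSO (light) or Erastin (dark). The Erastin samples of CHAC1 lie at 17.5 to 44.6 CPM, above all DMSO samples at 0.795 to 4.63 CPM, and GCLM reaches 104 to 122 CPM only in the SK-N-AS Erastin samples.

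CHAC2, the paralogue of CHAC1 with the same reaction, did not share this response. In KELLY, CHAC2 (chr2:53767804-53775196, plus strand) was at 10.2, 6.13 and 6.96 CPM with DMSO and 4.31, 5.81 and 4.85 CPM with Erastin, all 3 Erastin samples below the DMSO samples. The log2 fold change was -0.64 ± 0.25 (SE), with an unadjusted p of 0.0364 by edgeR and an adjusted p of 0.770. Without the GC trend it was -0.28 ± 0.17 (SE), under the 1.5-fold limit and with groups that overlapped, and without KELLY DMSO sample 1, the highest of the 6, it was -0.39 ± 0.21 (SE). In SK-N-AS the CHAC2 levels were 10.2, 12.6 and 13.1 CPM with DMSO and 10.1, 8.88 and 12.3 CPM with Erastin. These groups overlapped, and the log2 fold change of -0.19 had a 95% interval from -0.52 to 0.14.

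In KELLY the log2 fold changes of OPLAH and GGT7 were smaller once the GC trend was removed. OPLAH (chr8:144051266-144063965, minus strand), the 5-oxoprolinase, gave 72, 108 and 123 counts in the KELLY DMSO samples and 213, 104 and 200 in the KELLY Erastin samples. The groups overlapped, and the log2 fold change of 0.80 ± 0.33 (SE) had an unadjusted p of 0.0405 and an adjusted p of 0.770 by edgeR. It was 0.35 ± 0.20 (SE) without the GC trend. The SK-N-AS samples held few OPLAH reads, 20, 12 and 6 under DMSO and 26, 40 and 10 under Erastin, and the interval of its log2 fold change ran from -0.15 to 2.01, so that no difference and a 2-fold difference were both inside it at this depth. GGT7 (chr20:34844720-34872856, minus strand) ranged from 28.5 to 48.7 CPM with DMSO and from 37.0 to 65.9 CPM with Erastin in KELLY. Its log2 fold change there was 0.34 ± 0.28 (SE), and 0.01 ± 0.08 (SE) without the GC trend. In SK-N-AS the GGT7 value was -0.01 ± 0.13 (SE).

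GGCT (chr7:30496621-30504841, minus strand), the γ-glutamylcyclotransferase that acts on other γ-glutamyl compounds, showed little difference. It was at 42.2, 36.5 and 31.6 CPM with DMSO and 39.3, 34.0 and 35.4 CPM with Erastin in KELLY. In SK-N-AS all 3 Erastin samples, at 19.2, 18.7 and 18.6 CPM, lay below the DMSO samples, at 21.2, 20.9 and 22.7 CPM. The log2 fold change in SK-N-AS was -0.19 ± 0.10 (SE) with an adjusted p by edgeR of 0.654.

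Among the synthesis genes GCLM changed in SK-N-AS and passed no test in KELLY. GCLM (chr1:93885199-93909456, minus strand) was at 54.5, 59.5 and 65.2 CPM in the SK-N-AS DMSO samples and at 104, 122 and 117 CPM in the Erastin samples, and the groups did not overlap. It rose 1.93-fold, a log2 fold change of 0.95 ± 0.10 (SE) with an adjusted p by edgeR of 4.02e-04. In KELLY GCLM was at 86.2, 50.8 and 64.9 CPM with DMSO and 48.4, 67.6 and 63.9 CPM with Erastin. The KELLY groups overlapped, and the log2 fold change of -0.17 ± 0.23 (SE) had an interval from -0.71 to 0.38, which does not hold the size of the rise in SK-N-AS. Without the GC trend the KELLY value turned positive, at 0.16 ± 0.09 (SE) with an adjusted p of 0.721, and the SK-N-AS value was 0.94 ± 0.07 (SE).

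The catalytic partner GCLC (chr6:53497341-53616970, minus strand) moved less than GCLM. In SK-N-AS it was at 36.4, 35.7 and 36.5 CPM with DMSO and 42.4, 39.5 and 44.3 CPM with Erastin, 3 of 3 Erastin samples above all DMSO samples. The log2 fold change of 0.23 ± 0.09 (SE) had an unadjusted p of 0.0299 and an adjusted p of 0.475 by edgeR. In KELLY GCLC was at 70.3, 49.3 and 62.5 CPM with DMSO and 51.8, 62.1 and 60.3 CPM with Erastin, and the log2 fold change was -0.06 ± 0.18 (SE).

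GSS (chr20:34928432-34956027, minus strand) was at 39.6, 58.5 and 41.6 CPM with DMSO and 73.0, 47.2 and 51.1 CPM with Erastin in KELLY, and the groups overlapped. In SK-N-AS its log2 fold change was -0.01 with an interval from -0.22 to 0.20, so that a 1.5-fold change in either direction lay outside the interval. GSR (chr8:30678066-30727846, minus strand) was at 124, 128 and 129 CPM with DMSO and 117, 120 and 118 CPM with Erastin in KELLY. In SK-N-AS GSR was at 152, 162 and 151 CPM with DMSO and 164, 187 and 168 CPM with Erastin. Its groups were separate in both lines, below DMSO in KELLY and above it in SK-N-AS, with log2 fold changes of -0.10 ± 0.13 (SE) and 0.17 ± 0.08 (SE) and adjusted p-values by edgeR of 0.779 and 0.597. The separation in KELLY was lost without the GC trend, with 117, 132 and 126 CPM under DMSO and 124, 118 and 120 CPM under Erastin.

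Counted over the pathway, 2 of the 9 genes (CHAC1 and GCLM) passed an adjusted p of 0.05 in SK-N-AS, where 0.659% of the 16095 genes tested did, and 3 had an unadjusted p under 0.05 (8.77% of all genes). In KELLY none of the 9 passed by edgeR (0.00615% of 16258 genes tested did), 3 had an unadjusted p under 0.05 (2.64% of all genes), and DESeq2 called 1, CHAC1. At the threshold of the methods 2 of 9 were called in SK-N-AS, against 2.67% of all genes. After the GC trend was removed 3 of 9 were called there, against 2.78% of all genes. The gene added was OPLAH, at 6 to 40 counts a sample, with groups that overlapped and an adjusted p by edgeR of 0.203. In KELLY 3 of 9 were called (CHAC1 and OPLAH above, CHAC2 below), against 2.03% of all genes, 1.29% above and 0.744% below. After the GC trend was removed 1 of 9 was called in KELLY, against 1.97% of all genes. On the counts as deposited, only 1 was also called when KELLY DMSO sample 1, DMSO sample 3, Erastin sample 1 or Erastin sample 3 was left out. The groups did not overlap for 3 of 9 genes in KELLY (8.57% of all genes) and for 5 of 9 in SK-N-AS (14.9%). Without the GC trend the KELLY groups were separate for 1 of the 9, CHAC1, since those of CHAC2 and GSR then overlapped, and the count in SK-N-AS stayed at 5. No share over all genes is given for these corrected counts. The median log2 fold change of the 9 genes was -0.02 in KELLY and 0.17 in SK-N-AS, beside 0.01 and -0.01 over all genes tested.

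**Figure D2:**
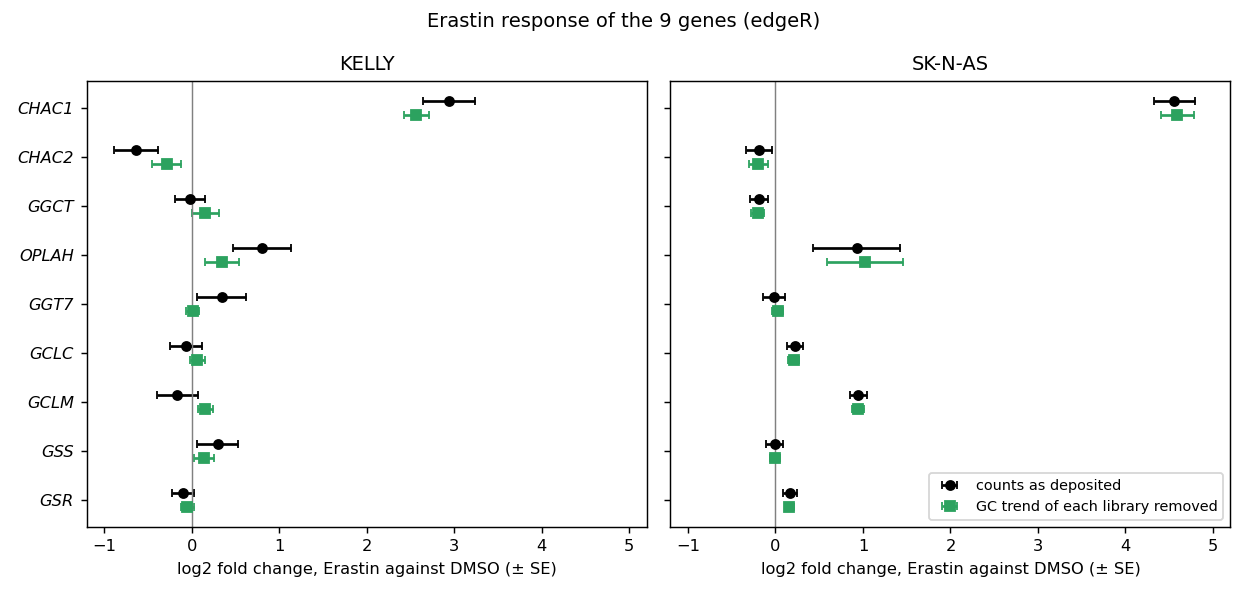
Log2 fold change of each gene with Erastin against DMSO (horizontal axis, ± SE, edgeR, 3 samples a group) in KELLY and SK-N-AS, from the counts as deposited (black circles) and with each library's GC trend removed (green squares). CHAC1 stands at 2.94 in KELLY and 4.56 in SK-N-AS, GCLM at -0.17 and 0.95, and the KELLY values of CHAC2, OPLAH and GGT7 move towards 0 after the correction.

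The sequences upstream of the paired genes were set side by side, because CHAC1 and CHAC2, and GCLM and GCLC, differed in their response. Letters were taken from the RefSeq promoter set of GRCh38.p14, which held 5 of the 9 genes, and the 250 bases before the start of each were searched on both strands for the core of the C/EBP-ATF response element (TGATGNAA) and of the antioxidant response element (TGACNNNGC). The CHAC1 window held 1 C/EBP-ATF core, 209 to 202 bases before the start and on the opposite strand, and the GCLM window held 1 antioxidant core, 34 to 26 bases before the start and on the opposite strand. Of 35116 promoters, 3.144% held the C/EBP-ATF core and 10.91% the antioxidant core. The windows of CHAC2, GCLC and GGT7 held neither in these letters, and bases further upstream were not searched. The GCLC window lies inside the annotated span of the gene given above. The CHAC1 stretch is 30 bases long since the GENCODE annotation places this window inside the first exon of a longer CHAC1 transcript, and the GCLM stretch ends at the match. Capitals mark the matches, each line reads 5′ to 3′ on the strand of the gene, and a match is a description of letters.
CHAC1, chr15:40953251-40953280, plus strand: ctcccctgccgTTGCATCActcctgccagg
CHAC2, chr2:53767554-53767803, plus strand: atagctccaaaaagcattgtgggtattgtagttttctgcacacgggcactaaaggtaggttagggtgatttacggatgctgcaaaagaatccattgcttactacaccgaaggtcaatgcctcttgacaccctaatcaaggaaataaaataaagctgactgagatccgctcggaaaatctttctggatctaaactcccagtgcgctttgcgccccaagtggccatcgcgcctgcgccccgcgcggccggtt
GCLM, chr1:93909456-93909680, minus strand: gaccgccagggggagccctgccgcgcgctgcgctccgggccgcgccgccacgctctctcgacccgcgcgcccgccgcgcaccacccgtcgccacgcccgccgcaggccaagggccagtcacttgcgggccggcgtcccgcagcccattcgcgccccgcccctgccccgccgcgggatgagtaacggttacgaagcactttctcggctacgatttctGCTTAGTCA
GCLC, chr6:53545102-53545351, minus strand: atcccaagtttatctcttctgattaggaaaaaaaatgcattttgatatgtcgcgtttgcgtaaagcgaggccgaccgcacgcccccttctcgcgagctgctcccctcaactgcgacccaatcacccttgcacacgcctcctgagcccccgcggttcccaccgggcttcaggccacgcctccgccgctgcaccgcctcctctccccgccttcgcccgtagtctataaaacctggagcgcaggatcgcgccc

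In KELLY the direction of the 9 genes followed their base composition. The 4 genes whose longest transcript has a GC content over 50% (CHAC1 61.3%, GGT7 61.2%, GSS 54.2%, OPLAH 66.6%) all had a positive log2 fold change, and the 5 under 50% (CHAC2 36.3%, GCLM 37.3%, GGCT 42.8%, GCLC 44.2%, GSR 46.7%) all had a negative one. After the GC trend of each library was removed, all 4 of the first set were closer to 0, and 3 of the 5 others were positive. Over 12084 genes Spearman's correlation of GC content with the KELLY log2 fold change was 0.77, and in SK-N-AS it was -0.13 over 11914 genes. CHAC1 kept a corrected value of 2.57 in KELLY, whereas the other 8 genes lay between -0.28 and 0.35. The part of GC content in the KELLY values was not tested beyond this correction.

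**Figure D3:**
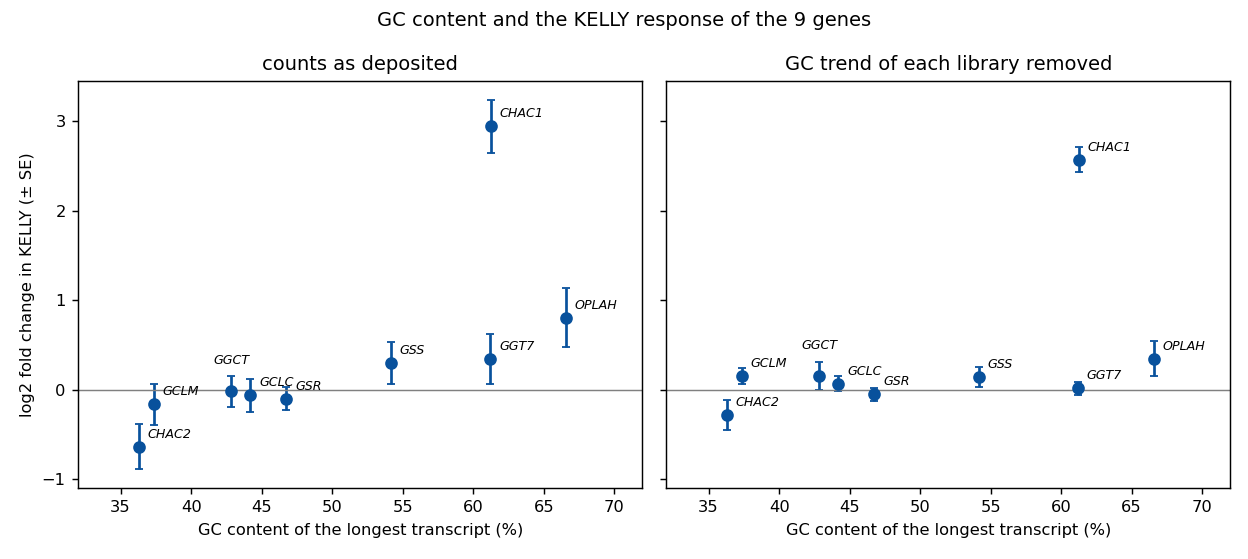
GC content of each gene's longest transcript (horizontal axis, %) against its log2 fold change with Erastin in KELLY (vertical axis, ± SE, 3 samples a group), from the counts as deposited (left) and with each library's GC trend removed (right). On the left the genes under 50% GC lie between -0.64 and -0.02 and those over 50% between 0.30 and 2.94, and on the right CHAC1 alone lies above 0.35.

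The difference between the 2 responses was tested directly, as an interaction term in a fit of the 12 samples, in which 0.00548% of 18239 genes passed an adjusted p of 0.05 and 4.25% an unadjusted p of 0.05. None of the 9 genes passed the adjusted threshold by edgeR, DESeq2 called none as well, and 2 had an unadjusted p under 0.05. For CHAC1 the log2 response in SK-N-AS exceeded that in KELLY by 1.61 ± 0.41 (SE, interval 0.73 to 2.50), with an unadjusted p of 0.00177 and an adjusted p of 0.811 by edgeR. For GCLM it exceeded that in KELLY by 1.10 ± 0.26 (SE, interval 0.54 to 1.67), with an unadjusted p of 0.00106 and an adjusted p of 0.775. Once GC content was corrected for, both genes passed, where 0.0713% of all genes did. CHAC1 was then at 2.01 ± 0.26 (SE) with an adjusted p by edgeR of 0.00642, and GCLM at 0.78 ± 0.13 (SE) with 0.0359. The GC correction alone was the only 1 of 22 alternatives in which either passed. With the replicate block added to the GC correction the adjusted p-values by edgeR were 0.0832 for CHAC1 and 0.287 for GCLM. The other 7 genes had adjusted p-values from 0.811 to 0.978 on the counts as deposited.

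The balance within each pair of genes was read as a ratio of reads per kilobase inside each sample, which does not depend on the scaling of the library. The CHAC1 to CHAC2 ratio was 0.223, 0.482 and 0.388 in the KELLY DMSO samples and 6.61, 2.38 and 3.83 in the Erastin samples. The SK-N-AS ratios were 0.0735, 0.0403 and 0.0421 under DMSO and 1.11, 2.07 and 1.06 under Erastin. CHAC2 was thus the more abundant of the 2 transcripts per length in all 6 DMSO samples and CHAC1 in all 6 Erastin samples. The log2 ratio rose by a mean of 3.50 in KELLY and 4.75 in SK-N-AS, each with an exact two-sided permutation p of 0.1, the smallest that 3 against 3 samples allow. Corrected for GC content the KELLY difference was 2.85. The GCLM to GCLC log2 ratio went from 1.39 ± 0.13 to 2.11 ± 0.17 (SD, n = 3) in SK-N-AS (exact permutation p = 0.1), without overlap. In KELLY it was 0.80 ± 0.14 with DMSO and 0.70 ± 0.12 with Erastin (SD, n = 3; exact permutation p = 0.6). Without the GC trend the direction in KELLY turned, from 0.71 ± 0.09 with DMSO to 0.79 ± 0.13 with Erastin (SD, n = 3; exact permutation p = 0.5).

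**Figure D4:**
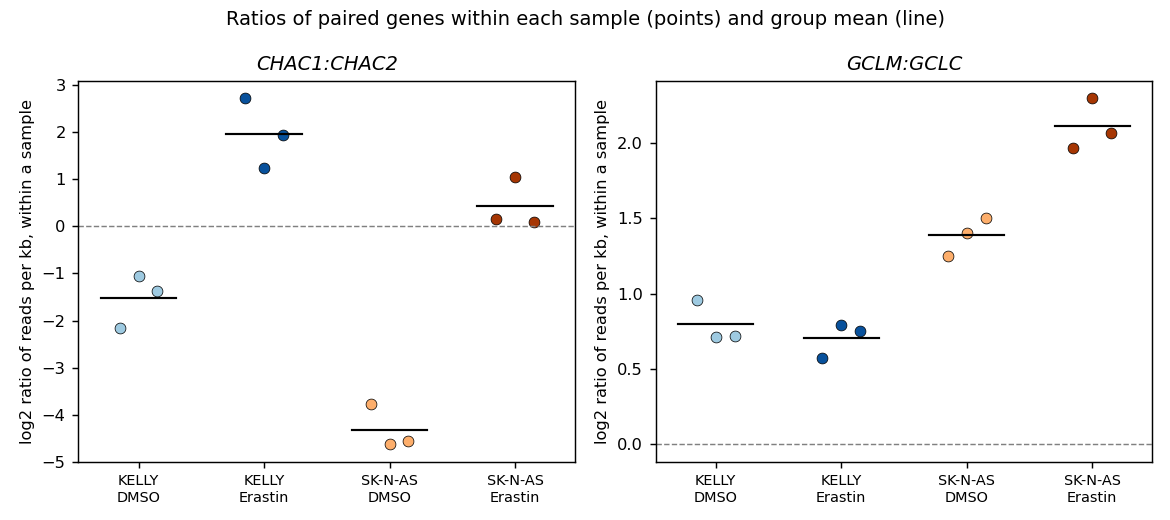
Log2 ratio of reads per kilobase between the genes of a pair within each sample (points) with the group mean (line, n = 3), for CHAC1 to CHAC2 (left) and GCLM to GCLC (right), and 0 (dashed) marks equal levels. The CHAC1 to CHAC2 ratio is below 0 in all 6 DMSO samples and above 0 in all 6 Erastin samples, and the GCLM to GCLC ratio is highest in the SK-N-AS Erastin samples, at a mean of 2.11.

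On the counts as deposited, some of the 9 genes differed between the lines without Erastin, in a share no higher than that of all genes. Of the 9, 5 passed an adjusted p of 0.05 between the control samples of both lines, where 61.3% of the 17089 genes tested did. A difference of at least 2-fold with that adjusted p was found for 2 of the 9 (CHAC1 and OPLAH), against 42.1% of all genes. CHAC1 was 4.40-fold lower in SK-N-AS (0.945 ± 0.204 CPM against 4.14 ± 0.532 in KELLY, SD, n = 3), with a log2 difference of -2.14 ± 0.26 (SE) and an adjusted p by edgeR of 1.20e-04. OPLAH was 7.98-fold lower, with a log2 difference of -3.00 ± 0.40 (SE) and an adjusted p by edgeR of 2.23e-04. GCLC was 1.69-fold lower (adjusted p by edgeR 0.00333) and GGCT 1.72-fold lower (0.00262). CHAC2 was higher in SK-N-AS, with a log2 difference of 0.61 ± 0.23 (SE) and an adjusted p by edgeR of 0.0456, although its groups overlapped. Without the GC trend the difference was 0.81 ± 0.12 (SE) with an adjusted p by edgeR of 2.31e-04, and the groups no longer overlapped, at 6.55 to 6.96 CPM in KELLY and 11.2 to 13.0 CPM in SK-N-AS. The CHAC2 call was lost, with adjusted p between 0.106 and 0.145, when KELLY DMSO sample 2 or 3 or SK-N-AS DMSO sample 2 or 3 was left out. Without KELLY DMSO sample 1 the CHAC2 difference was 0.85 ± 0.19 (SE) with an adjusted p by edgeR of 0.00139. GCLM and GSS had log2 differences of -0.19 and -0.07 with intervals that held 0.

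GSR and GGT7 changed sides of the threshold with the GC correction. GSR had a log2 difference of 0.27 ± 0.12 (SE) and an adjusted p by edgeR of 0.0708, and 0.30 ± 0.07 (SE) with 0.00275 once the GC trend was removed. GGT7 had -0.36 ± 0.22 (SE) with an adjusted p of 0.192, and -0.51 ± 0.07 (SE) with 1.52e-04 once the trend was removed. Leaving out KELLY DMSO sample 1 alone also took GGT7 past the threshold, with an adjusted p by edgeR of 0.00989. The DMSO groups of the lines did not overlap for 5 of the 9 genes (CHAC1, GCLC, GGCT, OPLAH and GSR), against 66.4% of all genes tested. Without the GC trend they did not overlap for 7 of the 9, with CHAC2 and GGT7 added. No share over all genes is given for that corrected count, so it is not a result about the 9 genes as a set.

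**Figure D5:**
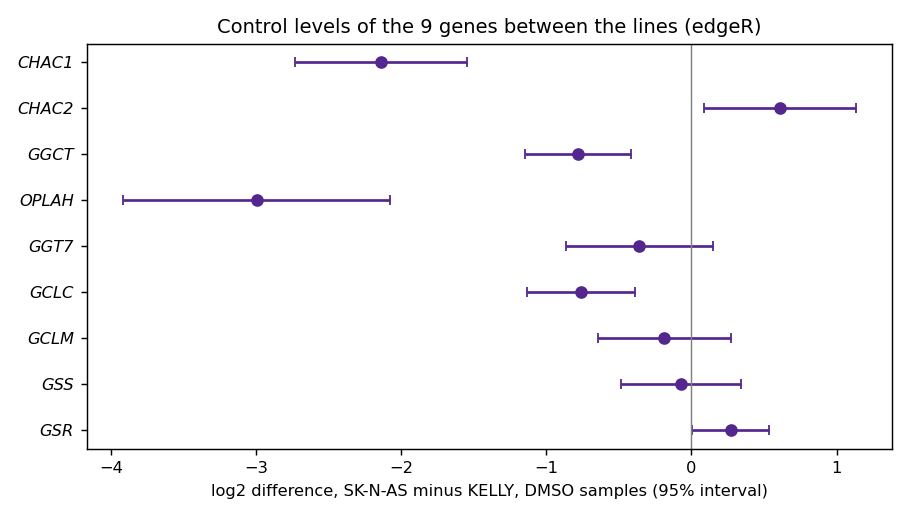
Log2 difference between the control (DMSO) samples of the lines for each gene (point, horizontal axis, SK-N-AS minus KELLY) with its 95% interval (edgeR, 3 samples a group). CHAC1, OPLAH, GCLC and GGCT lie below 0 with intervals that do not reach it, and CHAC2 lies above 0 at 0.61.

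Per length, GSR was the most abundant of the 9 transcripts in all 4 groups. In KELLY with DMSO the order in RPKM (CPM per kilobase of exon) was GSR at 35.3, GGCT at 23.1, GGT7 at 13.3, GCLM at 12.4, GSS at 7.55, GCLC at 7.05, CHAC2 at 5.94, CHAC1 at 2.02 and OPLAH at 0.862. The neighbours from GGT7 to CHAC2 overlapped in their samples, and the others did not. In SK-N-AS with DMSO the order was GSR at 43.0, GGCT at 13.5, GCLM at 11.0, GGT7 at 10.5, CHAC2 at 9.15, GSS at 7.25, GCLC at 4.20, CHAC1 at 0.461 and OPLAH at 0.108 RPKM, and only the neighbours from GCLM to CHAC2 overlapped. With Erastin CHAC1 stood in the fourth place in both lines, at 15.5 ± 5.70 RPKM in KELLY and 10.9 ± 2.86 RPKM in SK-N-AS (SD, n = 3), overlapping its neighbours on both sides. GCLM took the second place in SK-N-AS, at 21.1 ± 1.69 RPKM (SD, n = 3), without overlap.

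Several genes that supply glutathione with its amino acids were higher with Erastin. Of 8 such genes listed, 6 were tested in each line, and 4 passed in SK-N-AS (0.659% of all genes did) and met the threshold of the methods in KELLY (2.03% of all genes, 1.29% above), all higher with Erastin. The list was written with earlier results of these data known, so these counts are a description. SLC7A11, the cystine-carrying subunit of system Xc, rose in SK-N-AS by a log2 fold change of 2.01 ± 0.11 (SE) with an adjusted p by edgeR of 1.54e-06, and was 2.12 ± 0.35 (SE) higher in KELLY with an adjusted p of 0.409. The glycine transporter SLC6A9 rose in SK-N-AS by 2.03 ± 0.15 (SE) and was 1.63 ± 0.26 (SE) higher in KELLY. SLC3A2, the heavy chain of system Xc, and CBS, the first enzyme of transsulfuration, had log2 fold changes of 1.05 and 0.83 in SK-N-AS and 0.97 and 1.03 in KELLY. In KELLY all 4 had adjusted p-values of 0.369 or more. CBS in KELLY rested on Erastin sample 1, with 200, 65.0 and 82.3 CPM under Erastin and 55.5, 64.3 and 50.7 CPM under DMSO, and without that sample its log2 fold change fell from 1.03 to 0.37 with an unadjusted p of 0.0826 by edgeR. With the GC trend removed the KELLY values were 2.44 ± 0.10 (SE) for SLC7A11, 1.35 ± 0.12 (SE) for SLC6A9 and 0.82 ± 0.11 (SE) for SLC3A2, with adjusted p-values by edgeR of 5.51e-05, 0.00288 and 0.0255. The corrected value of CBS was 0.68 ± 0.26 (SE), with an adjusted p of 0.695.

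Of 8 regulators listed, 3 (ATF4, ATF3 and TRIB3) passed an adjusted p of 0.05 in SK-N-AS (0.659% of all genes) and met the threshold of the methods in KELLY (2.03% of all genes). Earlier results of these data were known when this list was written too, so its counts are a description. In SK-N-AS, ATF4 was at 114, 115 and 106 CPM under DMSO and at 289, 354 and 307 CPM under Erastin, a log2 fold change of 1.51 ± 0.09 (SE). In KELLY it was at 225, 347 and 291 CPM with DMSO and 567, 453 and 486 CPM with Erastin, a log2 fold change of 0.81 ± 0.19 (SE), and the groups did not overlap. The mRNA of NFE2L2, whose protein is regulated largely by its breakdown, had log2 fold changes of 0.03 ± 0.23 (SE) in KELLY and 0.07 ± 0.10 (SE) in SK-N-AS. Corrected for GC content, the KELLY log2 fold changes were 0.61 ± 0.08 (SE) for ATF4 and 1.07 ± 0.12 (SE) for ATF3, with adjusted p-values by edgeR of 0.0261 and 0.0106. TRIB3 then stood at 0.28 ± 0.14 (SE), under the 1.5-fold limit, and NFE2L2 at 0.23 ± 0.08 (SE), with adjusted p-values by edgeR of 0.721 and 0.676. With DMSO the lines differed in ATF4, which was lower in SK-N-AS (log2 difference -1.38 ± 0.17, SE), and in NFE2L2, which was higher there (1.45 ± 0.17, SE).

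On the counts as deposited, the enzymes that use or export glutathione did not pass the adjusted threshold with Erastin in either line. None of 25 glutathione-using enzymes tested was called by edgeR in KELLY or in SK-N-AS, with 1 in KELLY (GLRX) and 2 in SK-N-AS (GPX1 and GSTO2) at an unadjusted p under 0.05, beside shares over all genes of 2.64% (KELLY) and 8.77% (SK-N-AS). GPX1, a glutathione peroxidase, had a log2 fold change of -0.55 ± 0.11 (SE) in SK-N-AS with an adjusted p by edgeR of 0.0596. GPX4, the peroxidase that reduces lipid hydroperoxides with glutathione, had 0.20 ± 0.17 (SE) in KELLY, -0.12 ± 0.15 (SE) there without the GC trend, and -0.03 ± 0.09 (SE) in SK-N-AS. Among 6 γ-glutamyl transferases and peptidases tested in each line, and 6 and 7 glutathione transporters in KELLY and SK-N-AS, none passed on those counts. At the threshold of the methods 1 of 25 glutathione-using enzymes was called in SK-N-AS, against 2.67% of all genes. With the GC trend removed, 2 of 25 glutathione-using enzymes, 1 of 6 transferases and peptidases and 1 of 7 transporters passed an adjusted p of 0.05 in SK-N-AS. The share over all genes there was then 5.92%, and none of these genes passed in KELLY.

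Between the control samples of the lines many of these genes differed, beside the 61.3% of all genes that did. Of 26 glutathione-using enzymes 15 passed an adjusted p of 0.05, with 4 of 6 transferases and peptidases, 4 of 7 transporters, 4 of 6 genes of precursor supply and 5 of 8 regulators. The microsomal glutathione transferase MGST1 had 982, 599 and 852 counts in KELLY and 0 in every SK-N-AS sample. The aminopeptidase ANPEP, which splits cysteinylglycine at the cell surface, had 0, 5 and 0 counts in KELLY and 3789, 2878 and 2693 in SK-N-AS with DMSO. SLC7A11 was higher in SK-N-AS by a log2 difference of 1.17 ± 0.23 (SE) with an adjusted p by edgeR of 0.00222, and GPX4 by 1.00 ± 0.17 (SE) with 7.95e-04.

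The 5 genes whose pattern was most like that of CHAC1 were sought over the 12 samples, by Pearson's r of log2 CPM after the mean of each line was subtracted, among 12355 genes. They were the amino acid transporter SLC1A4 (0.99), the tRNA synthetases YARS (0.99) and CARS (0.99), the leucine zipper factor JDP2 (0.98) and SLC6A9 (0.98). The points share the split between Erastin and DMSO, so these values are a description. Among the pathway genes GCLM had an r of 0.59 with CHAC1 and CHAC2 an r of -0.63, and the others lay between -0.48 and 0.35, with OPLAH below the expression limit of this search.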

How the data were processed

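RNA-seq was read from 12 samples, 3 in each of 4 groups taken from the column names and labels. The authors trimmed paired-end reads with Trimmomatic, counted them per gene with HTSeq on GRCh38 with a GENCODE annotation, and deposited raw counts per gene without normalization. The aligner and the strand setting of the counting are not given in the sources used here, so reads of genes that overlap on the other strand (ASB3 with CHAC2, MYH7B with GSS, ACSS2 with GGT7, SMPD5 with OPLAH, GCLC-AS1 and LINC01564 with GCLC) cannot be told apart if strand was ignored. On the same strand, where strand cannot separate the reads, GENCODE 44 places a protein-coding gene over GGCT, a lncRNA over GCLC and MIR6846 over OPLAH.

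Each line was fitted in R 4.3.3 with edgeR 4.0.16 (filterByExpr, TMM, quasi-likelihood test), with Benjamini-Hochberg adjustment over all genes tested. All 9 members passed the filter in each comparison. Calls were made at an adjusted p under 0.05 and at an unadjusted p of at most 0.05 with a fold of at least 1.5. The DMSO samples of the lines were compared in the same way, and the interaction was fitted over 12 samples. CPM was scaled by TMM over 12 samples, and RPKM used the exon length of GENCODE 44. The GC correction took each library's log2 distance from the average of its line, smoothed it against GC content by loess with a span of 0.5 and degree 2, and entered the smooth as an offset. Ratios were tested by exact permutation. Alternatives were DESeq2 1.42.0 and limma 3.58.1 (voom), scaling by RLE or by library size, the low-count filter switched off or raised to 10 counts in each sample, a restriction to protein-coding genes, the replicate block and the GC correction singly and together, a joint fit of the 12 samples, and the omission of each replicate.

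The named genes were the 9 members, SLC7A11, SLC3A2, ATF4, NFE2L2, the 5 genes most like CHAC1 over 12 samples, and genes of 5 lists written by hand (γ-glutamyl transferases and peptidases, glutathione-using enzymes, glutathione transport, precursor supply, regulators) that met a threshold, at most 6 per list and line with Erastin and 4 per list between the lines, of which the text gives a part. GPX4 was named outside this rule, after its values were seen. Members and lists were chosen with earlier results of these data known. The scripts were also run on simulated counts in which the fold changes were known.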

Additional observations from a re-analysis of the deposited data

Results flagged for a closer look

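GSR, which returns oxidised glutathione to its reduced form, had every Erastin sample below every DMSO sample in KELLY and every Erastin sample above every DMSO sample in SK-N-AS. The log2 fold changes were -0.10 ± 0.13 (SE) in KELLY and 0.17 ± 0.08 (SE) in SK-N-AS. The difference between them was 0.26 ± 0.13 (SE), with an unadjusted p of 0.0651 and an adjusted p of 0.811 by edgeR, so it did not pass the test of the difference itself. With the GC trend of each library removed the difference was 0.20 ± 0.10 (SE), and the KELLY groups overlapped, at 117 to 132 CPM under DMSO and 118 to 124 CPM under Erastin.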

How the results depend on the processing

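CHAC1 in SK-N-AS passed an adjusted p of 0.05 in 17 of 17 alternatives and GCLM in 16 of 17, the exception being all 12 samples in 1 fit, where its adjusted p by edgeR was 0.0848. The count of members past an adjusted p of 0.05 in KELLY was 0, and became 1 with DESeq2, with no filter on low counts, with the GC correction, with the replicate block and the GC correction together, and with all 12 samples in 1 fit, and 0 to 1 when a replicate was left out. The count at the threshold of the methods in KELLY fell from 3 to 1 with the replicate block, the GC correction or both, and was 1 to 3 without a replicate. In SK-N-AS 2 members passed an adjusted p of 0.05, 4 with the replicate block and the GC correction together (GCLC and GSR added) and 1 with all 12 samples in 1 fit. In the interaction the count went from 0 to 2 with the GC correction alone, where 0.0713% of all genes passed. The GC correction removed a trend with GC content by construction, and the causes of the other shifts were not tested.

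The sign turned only for values that passed no adjusted test. In KELLY the log2 fold changes of GCLC, GCLM and GGCT became 0.066, 0.16 and 0.16 with the GC correction, 0.070, 0.15 and 0.15 with the replicate block added, and ranged from -0.20 to 0.059, -0.33 to 0.057 and -0.12 to 0.096 without a replicate. The difference in the GCLM to GCLC log2 ratio in KELLY went from -0.093 to 0.085 with the GC correction. In SK-N-AS GGT7 became 0.027 with the GC correction and 0.026 with the replicate block added, and ranged from -0.13 to 0.12 without a replicate, and GSS from -0.068 to 0.028. Between the DMSO samples GCLM ranged from -0.35 to 0.026 and GSS from -0.18 to 0.13 without a replicate. In the interaction OPLAH ranged from -0.31 to 0.57 without a replicate, and GGT7 became 0.0068 with the GC correction and 0.0065 with the replicate block added.

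All genes past an adjusted p of 0.05 numbered 1 in KELLY (0 with the replicate block, 33 with the GC correction, 31 with DESeq2), 106 in SK-N-AS (46 with all 12 samples in 1 fit, 308 with the replicate block, 1605 with the block and the GC correction), 10473 between the lines (7608 to 12482) and 1 in the interaction (0 to 13). The correlations of the deviations of same-numbered samples were -0.79, -0.83 and -0.15 in KELLY, all negative, and -0.14, 0.21 and 0.42 in SK-N-AS, where 2 of 3 were positive. Not every pair was over 0.1, so the numbers were not taken to pair the samples. These deviations still held the GC trend of each library, so the check cannot settle whether the samples were paired. Over the single members and alternatives, 601 values kept direction and call, 28 turned sign, 18 gained the call and 7 lost it. Low counts limit OPLAH in SK-N-AS, at 6 to 40 counts a sample. OPLAH could not be fitted in SK-N-AS or between the lines when at least 10 counts were required in every sample.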
